A study of Mus musculus with 7 samples.

Results

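Among the 17209 genes listed for muscularis macrophages of the mouse small intestine were 10 of the 10 sought genes of the CXC chemokine family: Cxcl1, Cxcl2, Cxcl3, Cxcl9, Cxcl10, Cxcl12, Cxcl13, Cxcl14, Cxcl16 and Pf4, also called Cxcl4. They were chosen by name, and their read counts in all 7 libraries were compared between surgery groups. The cells were CX3CR1-GFP+ macrophages, sorted from the peeled muscle layer of mice labelled C57BL6/J, without a stated age or sex. Sham surgery was represented by 4 libraries, numbered Sham 1 to Sham 4, and pMCAO surgery, the stroke of the series title, by 3 libraries, numbered pMCAO 1 to pMCAO 3, all at 24 h. Only the sham libraries are labelled as biological replicates, and the description of 1 library, pMCAO 3, contains the word pool. The p-values therefore speak of the spread among these libraries.

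CXC chemokines are small secreted proteins in which a pair of conserved cysteines is separated by another residue. Cells that carry the matching receptor move along their gradients, which are held on heparan sulfate of the tissue. Members with a glutamate-leucine-arginine motif, among them Cxcl1, Cxcl2 and Cxcl3, recruit neutrophils through CXCR2. Cxcl9 and Cxcl10 are induced by interferons and recruit T cells through CXCR3. Cxcl12 and Cxcl13 position stem cells, lymphocytes and B cells through CXCR4 and CXCR5. Cxcl16 is made as a membrane protein and binds CXCR6, and Pf4 is a heparin-binding chemokine stored in platelets that resident macrophages also express.

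Total counts over the listed genes ranged from 12685941 to 34432716 per library. By the edgeR quasi-likelihood test with Benjamini-Hochberg adjustment, 17 of the 17209 genes passed an adjusted p of 0.05, which is 0.0988%: 12 higher after pMCAO (0.0697%) and 5 lower (0.0291%). The macrophage markers Cx3cr1, Csf1r, Adgre1, Cd68, Fcgr1, Mertk, Cd14 and C1qa were all listed, with summed levels of 4099 to 6582 CPM (reads of a gene scaled to the size of its library) in sham libraries and 4434 to 4747 CPM after pMCAO. The 5 monocyte markers summed to 560.2 to 1390.1 CPM in the sham group, highest in Sham 1, and to 598 to 1172 CPM in the pMCAO group, most of it Ccr2. The 7 fibroblast markers summed to 52.9 to 163 CPM in the sham group and 104 to 532 CPM in the pMCAO group, and the 7 blood endothelial markers to 82.0 to 227 and 249.6 to 315 CPM. The mitochondrial ribosomal RNAs mt-Rnr1 and mt-Rnr2 together took 2.42% to 5.82% of the counts in sham libraries and 8.26% to 12.6% after pMCAO, without overlap, and their part in the results was not tested.

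None of the 10 chemokine genes passed the test over all genes, and at an adjusted p under 0.10 only Cxcl2 did (0.569% of all genes). Cxcl2 came nearest, at 1.79 times its sham level (adjusted p = 0.0614 by edgeR), followed by Pf4, whose sham level was 2.18 times that after pMCAO (adjusted p = 0.125), and Cxcl13, at 6.20 times its sham level (adjusted p = 0.127). In 2 of the 10 genes, Cxcl2 and Cxcl13, every pMCAO library lay above every sham library, and in 2, Pf4 and Cxcl16, every pMCAO library lay below. Over all genes 5.99% were separated upward and 6.58% downward. At an unadjusted p under 0.05, 3 of the 10 were higher (Cxcl2, Cxcl12 and Cxcl13) and 3 lower (Cxcl10, Cxcl16 and Pf4), against 6.97% and 6.47% of all genes, or 13.4% in either direction. The median log2 change was 0.38 over the 10 genes and -0.02 over all genes, and 5 of the 10 had lower means, against 51.4% of all genes. Without pMCAO 2 the median of the 10 genes was -0.42.

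Other tools called some of them. DESeq2 called Cxcl2, Cxcl13 and Pf4 (3.07% of the genes it adjusted were called), limma-voom called none of the 10 (0.203% of all genes), and limma-voom with sample quality weights called Cxcl2, Cxcl12, Cxcl16 and Pf4 (4.75% of all genes). In a bulk sample, fewer cells of a type and less RNA per cell cannot be told apart.

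**Figure D1:**
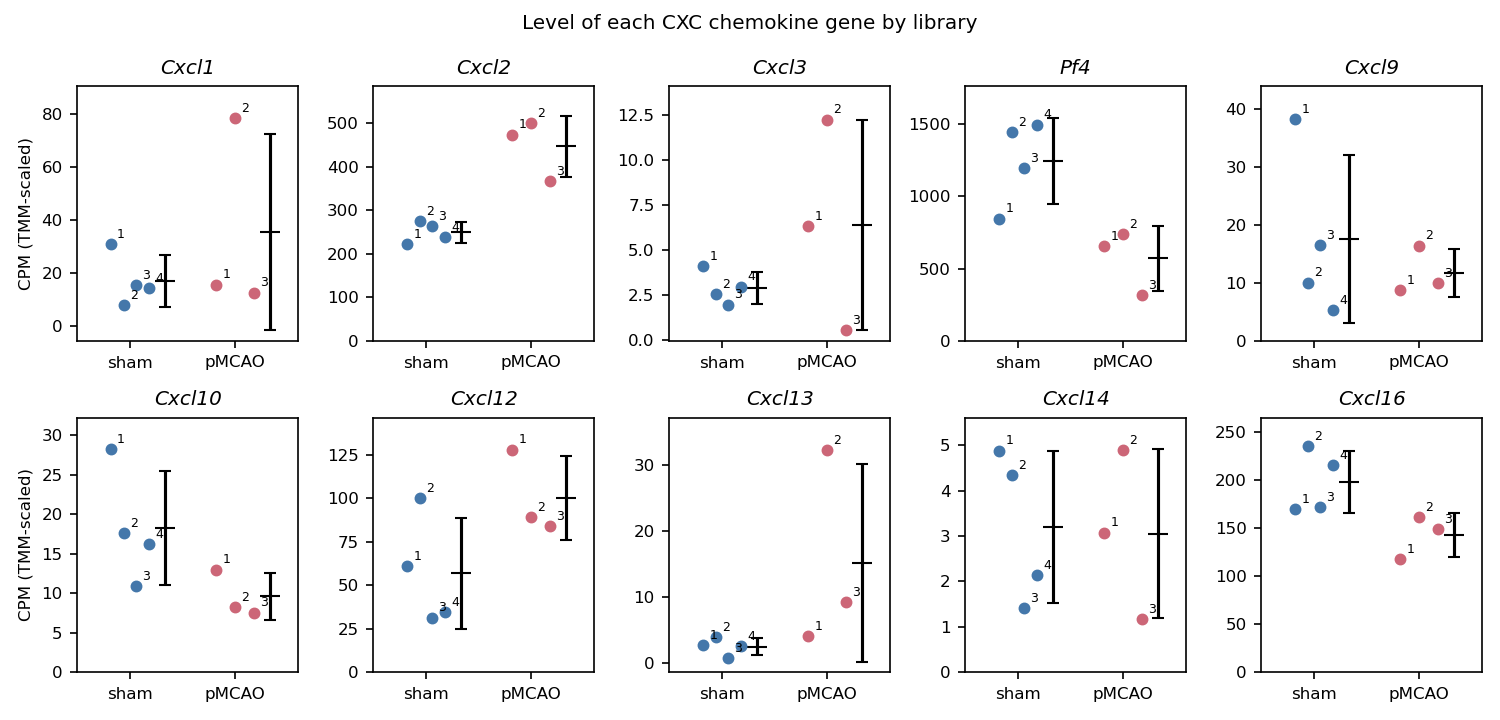
CPM after TMM scaling (y axis, linear, a separate scale per gene) of the 10 genes in 4 sham and 3 pMCAO libraries. Points are libraries with their replicate number, and the black bar is the mean ± SD of the group. Cxcl2 in pMCAO libraries lies between 367 and 500.1 CPM, above all sham libraries, while Pf4 lies between 316 and 739.7 CPM, below all of them.

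Levels were compared between genes as CPM per kb of merged exons, because a longer transcript yields more reads. In sham libraries Pf4 stood first at 1726 ± 412 CPM per kb (SD, n = 4), then Cxcl2 at 120.7 ± 11.5 and Cxcl16 at 65.7 ± 10.7 CPM per kb. The ranges of these 3 did not overlap with each other or with those of the genes below. Cxcl1 (9.14 ± 5.21), Cxcl10 (8.10 ± 3.22), Cxcl12 (6.95 ± 3.88), Cxcl9 (5.82 ± 4.82), Cxcl13 (2.12 ± 1.15), Cxcl14 (1.75 ± 0.917) and Cxcl3 (0.828 ± 0.259 CPM per kb) followed. Each of these 7 overlapped in range with its neighbour in the order, so the order of neighbours is not settled by these libraries. Cxcl1, Cxcl10 and Cxcl12, with a lowest sham value of 3.85 CPM per kb (Cxcl12), lay above Cxcl13, Cxcl14 and Cxcl3, with a highest of 3.40 (Cxcl13). After pMCAO the first 3 places by mean were the same, at 791 ± 312, 216 ± 34.0 and 47.3 ± 7.54 CPM per kb (SD, n = 3). There the range of Cxcl16 overlapped that of Cxcl1, which reached 41.7 CPM per kb in pMCAO 2, against 38.95 for Cxcl16 in pMCAO 1.

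Merged exons include retained introns of some transcripts. With the longest coding transcript as the length, a choice made after seeing the data, Cxcl3 was at 2.85 CPM per kb in sham libraries and Cxcl1 at 17.99, while the first 3 places did not change.

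**Figure D2:**
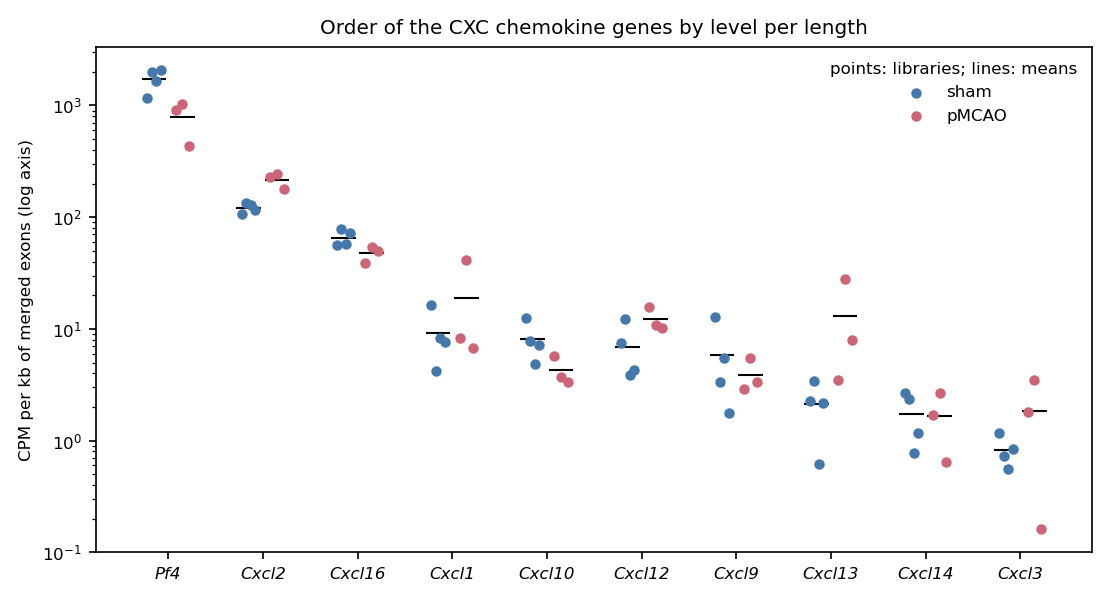
CPM per kb of merged exons (y axis, log scale) of the 10 genes, ordered by their sham mean. Points are libraries, with 4 sham and 3 pMCAO libraries per gene, and lines are group means. Pf4, Cxcl2 and Cxcl16 stand above the other 7 genes in sham libraries, with 1726, 120.7 and 65.7 CPM per kb on average.

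Cxcl1, Cxcl2 and Cxcl3, the neutrophil attractants, lie on the plus strand of chromosome 5 in GRCm38, in 1 locus with Pf4 and its platelet neighbour Ppbp. Pf4 (ENSMUSG00000029373) spans 90772435 to 90773383, Cxcl3 (ENSMUSG00000029379) 90786103 to 90789600, Cxcl1 (ENSMUSG00000029380) 90891241 to 90893115 and Cxcl2 (ENSMUSG00000058427) 90903871 to 90905938. The gap between Pf4 and Cxcl2 is 130.5 kb, and that between Cxcl1 and Cxcl2 is 10.8 kb. The sequences before the start sites of the 3 neutrophil attractants are shown because these genes share a pair of elements there that Pf4 does not have in its window. They are the 150 bases upstream of the RefSeq start (GRCm38.p6, plus strand), at chr5:90891095-90891244 for Cxcl1, chr5:90903749-90903898 for Cxcl2 and chr5:90785951-90786100 for Cxcl3. Capitals mark GGGAATTTCCC, the longest run of letters shared by the 250 bases upstream of all 3 starts, which holds a form of the site bound by NF-kB, and ATAAAAGG, a TATA-like element.
Cxcl1: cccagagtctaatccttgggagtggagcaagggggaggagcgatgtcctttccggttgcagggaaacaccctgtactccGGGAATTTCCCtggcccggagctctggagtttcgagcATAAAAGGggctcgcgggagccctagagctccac
Cxcl2: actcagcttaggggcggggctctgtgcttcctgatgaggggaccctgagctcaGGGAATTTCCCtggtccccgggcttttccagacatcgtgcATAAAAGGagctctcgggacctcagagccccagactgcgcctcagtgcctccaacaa
Cxcl3: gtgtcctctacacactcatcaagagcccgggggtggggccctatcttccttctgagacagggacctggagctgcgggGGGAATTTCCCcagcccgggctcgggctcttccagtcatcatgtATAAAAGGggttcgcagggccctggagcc

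Promoter windows from RefSeq matched 9 of the 10 genes, all but Cxcl16. The first base of GGGAATTTCCC lay 71 bases upstream of the RefSeq start of Cxcl1, 97 of Cxcl2 and 73 of Cxcl3. The window of Cxcl2 ends at 90903898, past the GENCODE start at 90903871, so its distance from that start is shorter. On either strand (GGGAAATTCCC on the other), it was in 14 of 32851 windows of 250 bases, or 0.0426%, and in none of the other 6 windows of these chemokines. The letters ATAAAAGG (CCTTTTAT on the other strand) were in 1.54% of windows. The looser NF-kB form GGNNTTTCC (GGAAANNCC on the other strand), which overlaps the shared run, was in 4.93% of windows. Among the chemokines it was also upstream of Cxcl9 and Cxcl10, and the windows of Cxcl12, Cxcl13, Cxcl14 and Pf4 held no match to it. All motif forms printed here were chosen after the sequences had been seen, and other forms had been searched first. A match to letters is a description of the sequence and not of binding.

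Cxcl2, the most abundant of the neutrophil attractants, was at 222, 275, 263 and 238 CPM in Sham 1 to Sham 4 and at 474, 500.1 and 367 CPM in pMCAO 1 to pMCAO 3. The lowest pMCAO library lay above the highest sham library, and the sham libraries were close together. The means were 249.6 ± 23.8 CPM (SD, n = 4) and 447 ± 70.4 CPM (SD, n = 3), a log2 change of 0.84 (SE 0.17, 95% interval 0.48 to 1.20, adjusted p = 0.0614 by edgeR). Its log2 change stayed between 0.71 and 0.96 over 18 alternative settings. The adjusted p ranged from 0.000788 with DESeq2 to 0.761 in a fit that included a stromal score (fibroblast plus blood endothelial markers), where the log2 change was 0.84 (SE 0.28). Of 100-base windows of Cxcl2 transcripts, 3.05% also occur in Cxcl3 transcripts, so a small part of their reads cannot be assigned between them.

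Cxcl1 and Cxcl3 did not repeat the separation of Cxcl2. Cxcl1 was at 30.9, 7.87, 15.5 and 14.3 CPM in Sham 1 to Sham 4 and at 15.6, 78.3 and 12.6 CPM in pMCAO 1 to pMCAO 3. A single library, pMCAO 2, stood far above the rest, and the other pMCAO libraries lay within the sham range. The log2 change was 1.06 (SE 0.69, adjusted p = 0.546 by edgeR), and it was -0.28 without pMCAO 2. It was 2.60 (SE 0.58, adjusted p = 0.688) with the stromal score in the fit and 0.53 (adjusted p = 0.939) with the replicate number as a block.

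Cxcl3 was at 4.11, 2.54, 1.97 and 2.97 CPM in Sham 1 to Sham 4 and at 6.32, 12.2 and 0.561 CPM in pMCAO 1 to pMCAO 3. Its highest and its lowest value both belonged to pMCAO libraries, and the lowest rested on 10 reads. The log2 change was 1.14 (SE 0.70, 95% interval -0.37 to 2.65, adjusted p = 0.501 by edgeR), and it was 0.23 without pMCAO 2. The authors' deposited table gives Cxcl3 a log2 fold change of -0.67.

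Pf4, the heparin-binding chemokine, was at 845, 1442, 1194 and 1497 CPM in Sham 1 to Sham 4 and at 657, 739.7 and 316 CPM in pMCAO 1 to pMCAO 3. The groups did not overlap, and Sham 1 and pMCAO 3 were the lowest of their groups. The means were 1245 ± 297 CPM (SD, n = 4) and 571 ± 225 CPM (SD, n = 3), a log2 change of -1.13 (SE 0.28, 95% interval -1.72 to -0.53, adjusted p = 0.125 by edgeR). Over the alternative settings the log2 change ranged from -1.35 without pMCAO 2 to -0.83 without pMCAO 3. The level of Pf4 per kb was 10.9 to 18.02 times that of Cxcl2 in sham libraries and 2.47 to 4.24 times after pMCAO.

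Because Pf4 is best known from platelets, platelet and megakaryocyte markers were read beside it. Ppbp, Gp1ba, Itga2b and Treml1 were listed, and Gp9, Gp1bb, Gp6 and Tubb1 were not. The summed level of the 4 listed markers was 3.23 to 11.9 CPM in the sham group and 7.74 to 16.5 CPM in the pMCAO group. Ppbp encodes the other abundant CXC chemokine of platelets. Its mean was 2.47 ± 1.12 CPM in the sham group and 6.37 ± 5.54 CPM in the pMCAO group (adjusted p = 0.373 by edgeR). It was at 4.79, 12.5 and 1.79 CPM in pMCAO 1 to pMCAO 3. Of the 4 listed markers 3 had higher means after pMCAO. The remaining 1, Gp1ba, had a lower mean, at 3.09 ± 2.17 and 2.06 ± 1.16 CPM. Pf4 also had a lower mean after pMCAO. Of the 8 macrophage markers 7 had lower means after pMCAO and 1 a higher mean, while 51.4% of all genes had lower means. The median log2 change of the 8 was -0.36. At an unadjusted p under 0.05 by edgeR 3 were lower and 1 higher (6.47% and 6.97% of all genes), and 0 passed over all genes. DESeq2 called C1qa and Fcgr1 (3.07% of the genes it adjusted), and limma-voom called 0. With quality weights limma-voom called C1qa, Cx3cr1 and Fcgr1 (4.75% of all genes). C1qa, a chain of complement C1q, had the lowest log2 change (-0.97), Cd14 was at -0.10, and Mertk, a receptor for the uptake of dead cells, was at 354 ± 97.2 CPM and 516 ± 66.5 CPM (0.54). The part of the platelet and macrophage markers in the result for Pf4 was not tested.

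**Figure D3:**
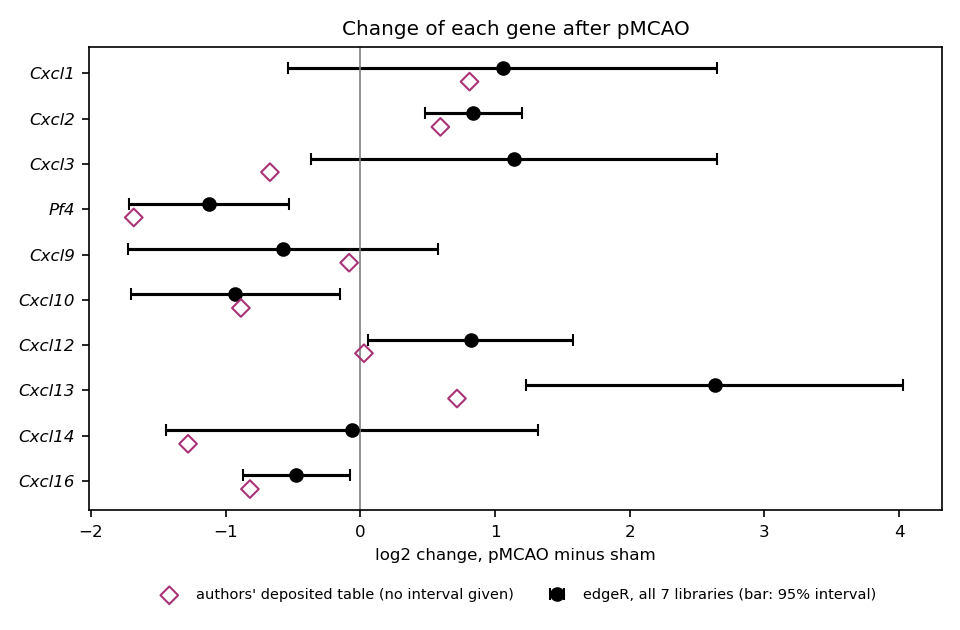
Log2 change of each of the 10 genes, pMCAO minus sham (x axis). Filled circles are the edgeR estimates over 7 libraries with 95% intervals, and open diamonds are the values of the authors' deposited table, which gives no interval. The intervals of Cxcl2, Cxcl12 and Cxcl13 lie above 0 and those of Pf4, Cxcl10 and Cxcl16 below it, and Cxcl3 has opposite signs in the 2 sources.

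Cxcl9 and Cxcl10, the interferon-induced attractants of T cells, lie 18.6 kb apart on the minus strand of chromosome 5, Cxcl9 (ENSMUSG00000029417) from 92321347 to 92328079 and Cxcl10 (ENSMUSG00000034855) from 92346638 to 92348889. The 250 bases upstream of Cxcl10 (chr5:92348890-92349139, minus strand, GRCm38.p6, from RefSeq) are shown because they hold matches to both an interferon motif and an NF-kB motif, as do those of Cxcl9. Capitals mark, from left to right, a match to GAAANNGAA, a core of the interferon-stimulated response element, and a match to the other strand of GGNNTTTCC.
Cxcl10: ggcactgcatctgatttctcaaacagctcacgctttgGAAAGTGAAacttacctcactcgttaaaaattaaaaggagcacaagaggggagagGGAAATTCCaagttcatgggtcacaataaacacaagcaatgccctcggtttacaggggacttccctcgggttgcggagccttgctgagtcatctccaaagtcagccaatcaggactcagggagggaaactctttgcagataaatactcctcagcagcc

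The letters GAAANNGAA (TTCNNTTTC on the other strand) were in 7.13% of the 250-base windows. They were also in the windows of Cxcl9 and Cxcl14 and in none of the other 6 windows of these chemokines.

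Cxcl10 was at 28.2, 17.6, 10.9 and 16.2 CPM in Sham 1 to Sham 4 and at 12.99, 8.29 and 7.57 CPM in pMCAO 1 to pMCAO 3. Only pMCAO 1 reached into the sham range, above Sham 3. The log2 change was -0.93 (SE 0.36, 95% interval -1.71 to -0.15, adjusted p = 0.286 by edgeR). Part of its exons overlaps Art3 on the other strand, which was at 0.659 to 5.83 CPM over the libraries.

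Cxcl9 was at 38.2, 10.06, 16.6 and 5.36 CPM in Sham 1 to Sham 4 and at 8.80, 16.4 and 10.04 CPM in pMCAO 1 to pMCAO 3. All pMCAO libraries lay within the sham range, which was wide because of Sham 1. The log2 change was -0.57 (SE 0.53, adjusted p = 0.678 by edgeR) and turned to 0.15 without Sham 1.

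Of 15 genes of interferon signalling upstream of these chemokines, 0 passed over all genes by edgeR, 6 were lower and 0 higher at an unadjusted p under 0.05 (6.47% and 6.97% of all genes), and 13 had lower means (51.4% of all genes). The median log2 change of the list was -0.43. DESeq2 called Irf7 (3.07% of the genes it adjusted were called). With quality weights limma-voom called Irf7 and Ifngr2 (4.75% of all genes), and without them it called 0 (0.203% of all genes). Irf7, which amplifies the interferon response, averaged 49.5 ± 20.5 CPM in the sham group and 14.7 ± 3.89 CPM in the pMCAO group (adjusted p = 0.0527 by edgeR). Ifngr2, a chain of the interferon-gamma receptor, was at 135 ± 21.4 and 85.0 ± 18.6 CPM, and Stat2, which carries the type I interferon signal, at 128 ± 14.2 and 85.9 ± 18.6 CPM (adjusted p of 0.192 and 0.225 by edgeR).

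Cxcl12, the ligand of CXCR4 (ENSMUSG00000061353, chromosome 6, 117168535 to 117181367, plus strand), was at 60.9, 100.2, 31.5 and 34.9 CPM in Sham 1 to Sham 4 and at 128, 89.1 and 83.9 CPM in pMCAO 1 to pMCAO 3. Sham 2 lay above pMCAO 2 and pMCAO 3, and the other sham libraries lay below every pMCAO library. The means were 56.8 ± 31.7 CPM (SD, n = 4) and 100.4 ± 24.1 CPM (SD, n = 3), a log2 change of 0.82 (SE 0.35, adjusted p = 0.338 by edgeR). The authors' deposited table gives 0.03.

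Fibroblasts and endothelium are known to express Cxcl12. All 14 fibroblast and blood endothelial markers were listed and had higher means after pMCAO, as had 8370 of the 17209 genes. By edgeR 0 of them passed, and 6 fibroblast and 4 endothelial markers were higher at an unadjusted p under 0.05 (6.97% of all genes). DESeq2 called 2 fibroblast and 2 endothelial markers, limma-voom 0, and limma-voom with quality weights 6 and 3, all higher (3.07%, 0.203% and 4.75% of genes in either direction). The score of the 14 markers, the mean log2 CPM relative to sham libraries, was -0.60 to 1.08 in sham libraries, with Sham 2 the highest, and 0.75 to 1.83 after pMCAO. With this score as a covariate the log2 change of Cxcl12 was -0.09 (SE 0.37, adjusted p = 0.983 by edgeR), in a fit that called 0 of the 17209 genes. The score and the surgery group largely run together, so their parts in the level of Cxcl12 cannot be told apart. Without Sham 2 it was 1.24 (adjusted p = 0.107).

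Cxcl13, the B cell attractant (ENSMUSG00000023078, chromosome 5, 95956951 to 95961068, plus strand), was at 2.62, 3.91, 0.706 and 2.50 CPM in Sham 1 to Sham 4 and at 4.02, 32.2 and 9.14 CPM in pMCAO 1 to pMCAO 3. The groups did not overlap, but pMCAO 1 (47 reads) lay just above Sham 2 (91 reads), and pMCAO 2 stood far above the rest. The log2 change was 2.63 (SE 0.65, 95% interval 1.23 to 4.03, adjusted p = 0.127 by edgeR), and 1.44 (SE 0.64) without pMCAO 2. The authors' deposited table gives 0.72, with an FDR of 0.649.

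The library pMCAO 2 had the highest Cxcl1, Cxcl2, Cxcl3, Cxcl13 and Cxcl14 of the 7, with Cxcl14 almost level with Sham 1 (4.90 and 4.88 CPM). It also had the highest summed level of large peritoneal macrophage markers. Of 6 such markers 5 were listed, and Gata6, which defines these cells, was not. No gene above 0.5 CPM in the 3 pMCAO libraries alone is listed, so this does not show that Gata6 was absent from them. The sum of the 5 listed markers was 14.3 to 34.2 CPM in sham libraries and 51.2, 98.5 and 38.2 CPM in pMCAO 1 to pMCAO 3. Of the 5, 4 had higher means after pMCAO and 1, Icam2, a lower mean. DESeq2 and limma-voom with quality weights called F5 and Prg4, both higher (3.07% and 4.75% of genes in either direction), and edgeR and limma-voom called 0. The summed level of the platelet markers was also highest in pMCAO 2, at 16.5 CPM. The part of either marker list in these results was not tested.

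Cxcl14, a chemokine of epithelium and stroma (ENSMUSG00000021508, chromosome 13, 56288643 to 56296551, minus strand), was at 4.88, 4.34, 1.41 and 2.14 CPM in Sham 1 to Sham 4 and at 3.08, 4.90 and 1.18 CPM in pMCAO 1 to pMCAO 3. The groups overlapped over almost the whole range. The log2 change was -0.06 (SE 0.64, 95% interval -1.44 to 1.32, adjusted p = 0.979 by edgeR). The authors' deposited table gives -1.28, with an FDR of 0.436.

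Cxcl16, the membrane-bound ligand of CXCR6 that also takes up oxidised lipoprotein (ENSMUSG00000018920, chromosome 11, 70453983 to 70459984, minus strand), was at 170.3, 235, 172 and 216 CPM in Sham 1 to Sham 4 and at 118, 162 and 149 CPM in pMCAO 1 to pMCAO 3. Each pMCAO library lay below each sham library, with pMCAO 2 close to Sham 1. The means were 198 ± 32.3 CPM (SD, n = 4) and 143 ± 22.8 CPM (SD, n = 3), a log2 change of -0.47 (SE 0.19, 95% interval -0.87 to -0.08, adjusted p = 0.287 by edgeR). Of 100-base windows of its transcripts, 14.2% also occur in Zmynd15 on the other strand, which was at 31.1 to 76.1 CPM, and the strand setting of the counting is not given in the sources used here.

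**Figure D4:**
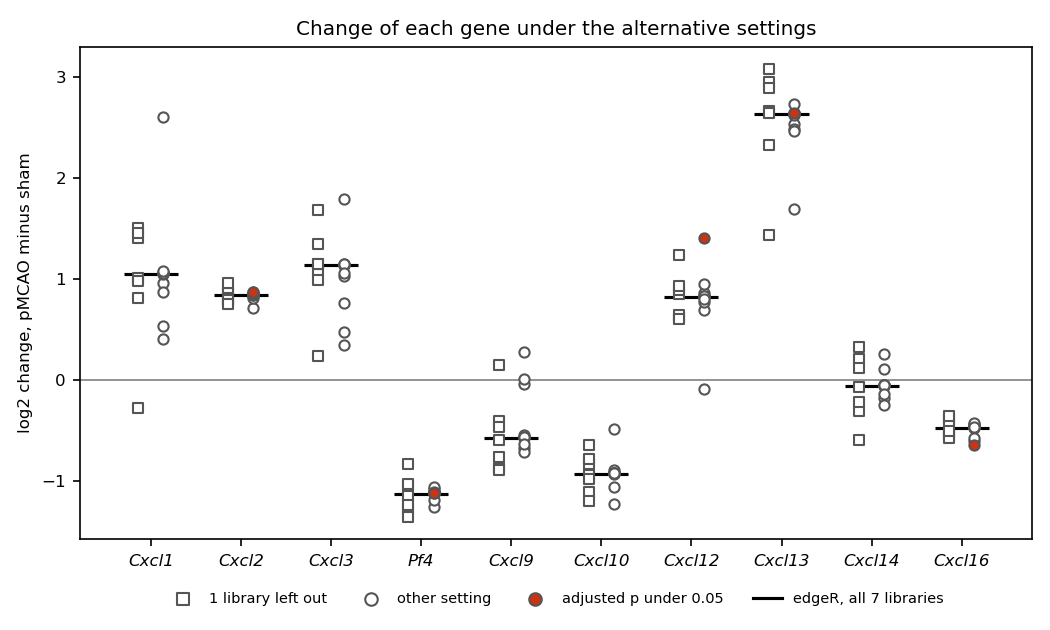
Log2 change of each gene, pMCAO minus sham (y axis), under up to 18 alternative settings. Squares leave out 1 library, circles are other settings, filled symbols have an adjusted p under 0.05 and the black line is the edgeR value over 7 libraries. Cxcl2 stays between 0.71 and 0.96, while Cxcl1 crosses 0 without pMCAO 2 and Cxcl12 crosses 0 when the stromal score enters the fit.

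In the authors' deposited table, an FDR under 0.05 was given to 14 of 17209 genes (0.0814%), and none of the 10 chemokines was among them. The lowest FDR of the 10 in that table was 0.104 for Pf4 (log2 fold change -1.68), followed by 0.183 for Cxcl16 (-0.82) and 0.245 for Cxcl2 (0.59).

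Of the 11 receptors and atypical receptors of CXC chemokines, 8 were listed and Cxcr1, Ackr1 and Ackr2 were not. By edgeR 0 of the 8 passed over all genes, 1 was higher and 2 lower at an unadjusted p under 0.05 (6.97% and 6.47% of all genes), and DESeq2 and both limma-voom fits called 0. Cxcr4, the receptor of Cxcl12, averaged 30.7 ± 9.33 CPM in the sham group and 45.4 ± 4.01 CPM in the pMCAO group. Cxcr5, the receptor of Cxcl13, was at 3.41 ± 1.82 and 0.858 ± 0.275 CPM, and Cxcr6, the receptor of Cxcl16, at 11.7 ± 3.66 and 5.79 ± 2.33 CPM. The adjusted p were 0.362, 0.259 and 0.308 by edgeR. Cxcr5 and Cxcr6 are genes of lymphocytes, and lymphocyte markers had lower means as well. Of 6 T cell markers 4 were lower, with a median log2 change of -0.80, among them Lck (-1.43) and Cd3e (-1.22), against -1.01 for Cxcr6. Of 4 B cell markers 3 were lower, with a median of -0.38. Over all genes 51.4% had lower means. The summed levels overlapped between the groups, at 13.1 to 47.6 and 10.3 to 39.2 CPM for T cells and at 42.8 to 147 and 50.4 to 72.6 CPM for B cells. Their part in the values of Cxcr5 and Cxcr6 was not tested. Cxcr2, the receptor of the neutrophil attractants, was at 1.15 ± 0.934 and 0.379 ± 0.435 CPM. Of 9 neutrophil markers 4 were listed, with sums of 86.6 to 123 CPM and 75.1 to 118 CPM, and Ly6g, Camp, Ltf, Mpo and Elane were not. Most of the sum was Csf3r, at 90.2 ± 24.0 and 77.4 ± 11.3 CPM. S100a8 was at 7.75 ± 14.5 and 13.5 ± 10.9 CPM, S100a9 at 7.80 ± 13.5 and 4.24 ± 4.44 CPM, and Retnlg at 0.499 ± 0.352 and 0.711 ± 1.09 CPM.

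Of 5 further CXC ligands only Ppbp and Cxcl17 were listed, and neither passed by any of the 4 tools (0 at an unadjusted p under 0.05 by edgeR). Of 8 listed proteases that cut or shed these chemokines, 0 passed by any of the 4 tools and 0 had an unadjusted p under 0.05 by edgeR. Adam10, which sheds Cxcl16 from the membrane, averaged 142 ± 17.6 CPM in the sham group and 179.9 ± 46.4 CPM in the pMCAO group (adjusted p = 0.455 by edgeR). Mmp9, a gelatinase, was at 107 ± 32.1 and 70.7 ± 26.2 CPM, and Mmp8, a neutrophil collagenase, at 1.23 ± 1.20 and 3.78 ± 2.85 CPM.

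Of 13 carriers and enzymes of glycosaminoglycans, which bind Pf4 and hold chemokine gradients, 0 passed over all genes by edgeR and by limma-voom, with 2 higher and 4 lower at an unadjusted p under 0.05 by edgeR (6.97% and 6.47% of all genes). Sdc3, a syndecan that carries heparan sulfate, averaged 163 ± 29.8 CPM in the sham group and 83.0 ± 19.0 CPM in the pMCAO group (log2 change -0.98, adjusted p = 0.0763 by edgeR). It was the only 1 of the 13 called by DESeq2 (3.07% of the genes it adjusted) and by limma-voom with quality weights (4.75% of all genes). Gpc4, a glypican, was at 0.497 ± 0.380 and 2.89 ± 1.56 CPM and Sdc2 at 2.74 ± 1.38 and 7.70 ± 4.28 CPM, both also known from fibroblasts.

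Of 19 listed genes of NF-kB and genes induced early with the neutrophil attractants, 0 passed by edgeR or limma-voom, and 2 were higher and 3 lower at an unadjusted p under 0.05 by edgeR (6.97% and 6.47% of all genes). Ptgs2, the inducible cyclooxygenase, averaged 11.2 ± 2.20 CPM in the sham group and 33.04 ± 10.98 CPM in the pMCAO group (log2 change 1.56, adjusted p = 0.0577 by edgeR). Nfkb2, an NF-kB subunit, was at 25.9 ± 5.80 and 12.9 ± 3.68 CPM, and Nfkbie, an inhibitor of NF-kB, at 51.0 ± 7.58 and 32.7 ± 7.996 CPM. DESeq2 called Ptgs2 and Nfkb2 (3.07% of the genes it adjusted were called), and limma-voom with quality weights called these and Nfkbie (4.75% of all genes). The median log2 change of the list was 0.06.

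Of 9 genes that control the decay of AU-rich mRNAs such as those of Cxcl1 and Cxcl2, 0 passed by any of the 4 tools. At an unadjusted p under 0.05 by edgeR 1 was lower (6.47% of all genes). This was Zc3h12a, the RNase Regnase-1, with 15.3 ± 1.495 CPM in the sham group and 9.69 ± 0.530 CPM in the pMCAO group (adjusted p = 0.339 by edgeR). Rc3h1 was at 193 ± 22.5 and 242 ± 62.8 CPM and Zfp36l1 at 236 ± 26.2 and 276 ± 47.9 CPM.

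**Figure D5:**
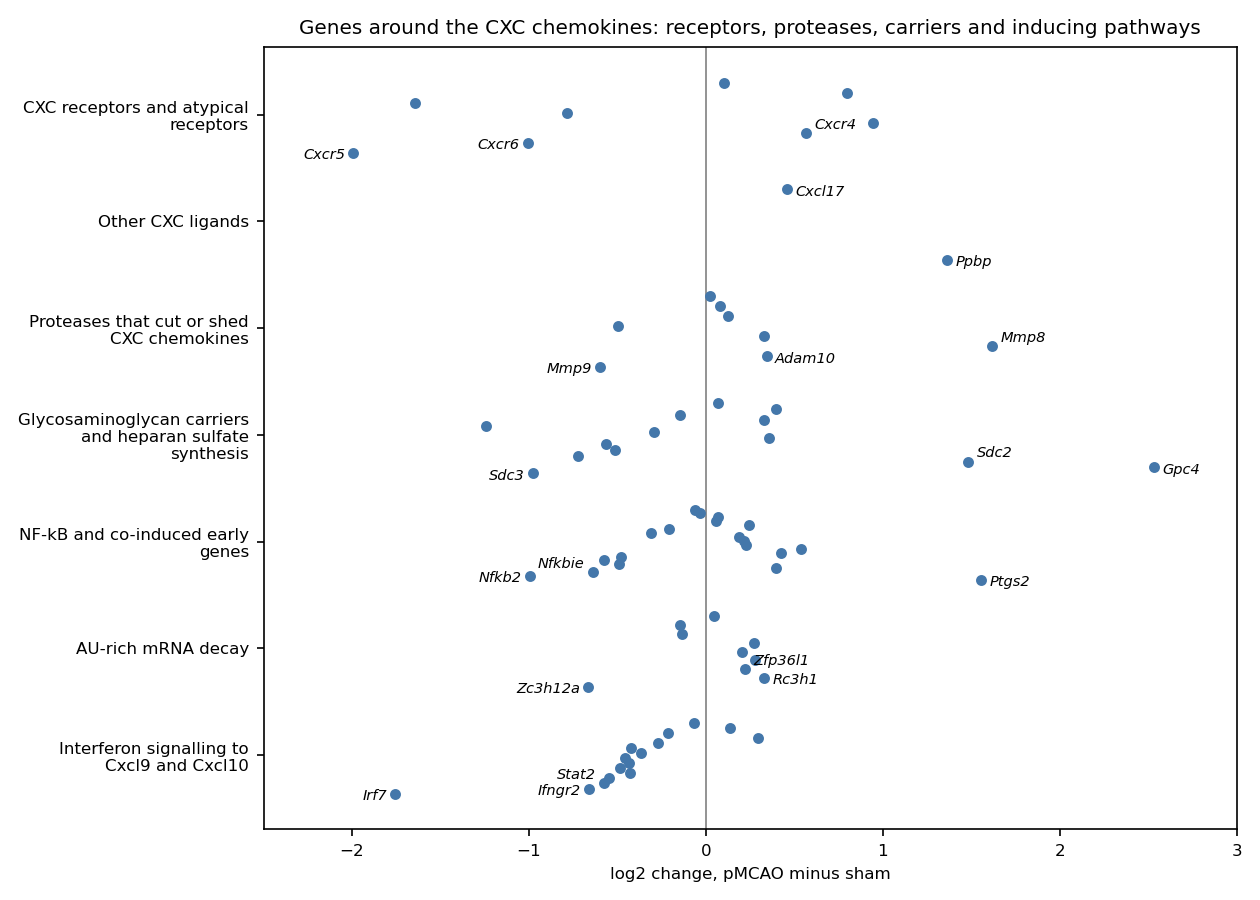
Log2 change, pMCAO minus sham (x axis), of the listed genes of each related group (y axis, points of a group spread upward in order of p). The 3 genes with the smallest p of each group are named, where a group has that many. Most genes of interferon signalling lie below 0, 13 of 15 (51.4% of all genes do), and the other groups with more than 2 genes lie on both sides.

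The genes most like Cxcl2 and Pf4 over the 7 libraries were found among 11588 genes of at least 5 CPM by the root mean square difference of log2 CPM, centred on each gene's mean. For Cxcl2 they were RP23-300K5.1 (difference 0.12), Snx7, a sorting nexin (0.15), and Zfp846, a zinc finger gene (0.15). Zfp846 averaged 16.3 ± 1.84 CPM in the sham group and 28.5 ± 3.23 CPM in the pMCAO group. For Pf4 they were Lst1, a leukocyte transmembrane protein (0.15), the paired receptor Pilrb2 (0.16) and C1qb, a chain of complement C1q (0.16). C1qb was at 3125 ± 647 and 1646 ± 542 CPM. The match covered both groups, so the direction of change that these genes share with Cxcl2 or Pf4 follows from how they were chosen.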

How the data were processed

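All values came from 1 deposited table of 7 RNA-seq libraries. The submitters' processing notes name STAR, featureCounts and limma for GRCm38 (mm10) and give no version, and the read counts in the deposited table are the authors'. Their strand setting is not given in the sources used here. The deposited CPM equal the count over the library's total to within 0.0005. The log2 fold changes and p-values with FDR in the deposited table are the authors'. Each of the 17209 genes exceeds 0.5 CPM in at least 4 libraries, so a gene above that level only in the 3 pMCAO libraries is not among them. Per the labels' protocols, 2.0 ng of RNA entered each library.

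Counts as deposited were tested with edgeR 4.0.16 (quasi-likelihood, robust, TMM factors, two-sided) in R 4.3.3, with group as the only term and Benjamini-Hochberg adjustment over all genes. The expression filter removed 0 genes. CPM are TMM-scaled, and 3 reads equal 0.087 to 0.236 CPM, counting error only. DESeq2 1.42.0 and limma 3.58.1 were alternatives. The procedure was tested on simulated counts. Their spread between libraries and the sizes of the added changes were set by hand and not fitted to these data. Positions and lengths are from GENCODE M21. The named genes are the 10 chemokines, up to 3 genes of smallest p per related list, and the 3 genes most like Cxcl2 and Pf4. Further genes named were chosen after their values were seen: Cxcr2, Art3, Zmynd15, mt-Rnr1, mt-Rnr2, single markers of other cells or of macrophages, and list members called by another tool. Members and lists were chosen with earlier results of these data known. Of the marker lists, 1 platelet marker is not reported here.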

Additional observations from a re-analysis of the deposited data

How the results depend on the processing

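The count of genes called was 29 without scaling factors, 34 with upper-quartile factors, 75 over genes of at least 5 CPM, 476 with DESeq2, 35 with limma-voom, 818 with sample quality weights, 0 with the fibroblast and endothelial score as a covariate, 42 after thinning to the smallest library and 98 at a threshold of 0.10, against 17. Leaving out 1 library it ranged from 0 (without pMCAO 1) to 100 (without pMCAO 2), with 47 without Sham 1 or Sham 2, 9 without Sham 4 and 7 without pMCAO 3. The count of the 10 chemokines called was 1 over genes of at least 5 CPM (Cxcl2), 3 with DESeq2, 4 with sample quality weights and 1 at a threshold of 0.10 (Cxcl2), against 0, and 0 without each of the libraries in turn. Cxcl2, Cxcl3, Cxcl10, Cxcl13, Cxcl16 and Pf4 kept their direction under every setting in which they could be fitted. The sign of Cxcl1 differed in 1 of 18 settings, Cxcl9 in 3 of 18, Cxcl12 in 1 of 18 and Cxcl14 in 5 of 17, none of them with a call; the cause was not tested. Without scaling factors the median of all genes moved to -0.14. With the replicate block 21 genes and 0 of the 10 chemokines were called. Same-numbered libraries had correlations of -0.11, 0.01 and 0.18 of their deviations from the group means, so the numbers were not taken to pair the samples, and only pMCAO 3 correlated best with its own number. At the depth of pMCAO 3, Cxcl3 rested on 10 reads and Cxcl14 on 21.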
